A study of Mus musculus with 2 samples.

Results

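The BCL-2 family of survival and death genes was followed in donor T cells of mice with acute graft-versus-host disease. It was taken as the 10 rows of the deposited feature lists, out of 32285, whose symbols were Bcl2, Bcl2l1, Bcl2a1b, Bcl2a1d, Mcl1, Bcl2l11, Bbc3, Pmaip1, Bax and Bak1, and all 10 were found in both libraries. The family decides whether the outer mitochondrial membrane is opened. BAX and BAK, the products of Bax and Bak1, form the pores that release cytochrome c. BCL-2, BCL-XL (Bcl2l1), MCL-1 and the A1 proteins (Bcl2a1b and Bcl2a1d) hold BAX, BAK and their activators in check. The BH3-only proteins BIM (Bcl2l11), PUMA (Bbc3) and NOXA (Pmaip1) bind these guardians and set the pore formers free. In T cells, BIM is known for the contraction of activated clones, and BCL-2 for the upkeep of resting cells through IL-7.

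BALB/c recipients were irradiated and given C57BL/6 bone marrow depleted of T cells, with 200000 purified splenic naive C57BL/6 T cells per the labels, though a figure description in the study's text gives another dose. Both groups carried the same kind of allogeneic graft and no untreated or syngeneic group was analysed here. Animals were 6 to 12 weeks of age per the study's methods. Splenic T cells of donor type, sorted as CD45+, H2Kb+, H2Kd- and TCRβ+, were pooled from 5 spleens and profiled by droplet single-cell RNA-seq in 2 libraries, 1 from day +7 and 1 from day +14 after the transplant. The sort did not separate T cells of the graft from any T cells that grew from the donor marrow, since both carry H2Kb. Titles gave the days, because the protocol text of both libraries speaks of day +7. With 1 library per day, no test between days was possible, a day and its library cannot be told apart, and every interval given covers counting error only.

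After limits of 500 to 7500 genes and at most 15% mitochondrial UMIs (unique molecular identifiers, each counting 1 captured RNA molecule), 7179 of 7355 cells were kept at day +7 with a median of 9210 UMIs, and 7794 of 8043 at day +14 with a median of 8144 UMIs. The 2 libraries shared 20 barcode sequences, 17 of them among kept cells. The labelled cell type held for most cells, as 6983 and 7653 kept cells passed a T gate on T cell receptor and Cd3 genes. CD8 cells without a Cd4 UMI numbered 5764 and 5811. They were split by 11 cell cycle genes into cycling cells, 3370 and 3454, and non-cycling cells, 1418 and 1496, with 976 and 861 in between left out of both. Conventional CD4 cells numbered 459 and 697, of which 188 and 201 were cycling and 199 and 345 were not. Foxp3+ cells without a Cd8 UMI numbered 41 and 38. They carried the regulatory T cell genes Ctla4 at 383 and 798 CPM and Ikzf2 at 576 and 1004 CPM. Outside the T gate were 38 and 67 neutrophil-like cells and 108 and 21 erythroid-like cells, where the T cell gene Cd3e stood at 6.87 CPM or less in the neutrophil-like cells of both days and the erythroid-like cells of day +7. Levels are given as CPM, the UMIs of a gene per 1000000 UMIs of all cells in a gate. A sum over cells cannot tell fewer expressing cells from less RNA per cell.

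In the GRCm38 annotation, Bcl2 lies on chromosome 1 (106538178 to 106714274, minus strand), Mcl1 on chromosome 3 (95658788 to 95663176, plus strand), and Bcl2l1 (152780668 to 152831728, minus strand) and Bcl2l11 (128126038 to 128162547, plus strand) on chromosome 2. Bbc3 (16308393 to 16318205, plus strand) and Bax (45461697 to 45466898, minus strand) are on chromosome 7, and Bak1 is on chromosome 17 (27019810 to 27029009, minus strand). Bcl2a1b (89199209 to 89207827, plus strand) and Bcl2a1d (88723285 to 88731914, minus strand) sit on chromosome 9. Genes on the opposite strand overlap Bcl2, Bcl2a1d and Bak1, and how strand was used in counting is not given in the sources used here.

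FOXO factors are known to switch on Bcl2l11 and Bbc3, so the RefSeq windows of 250 bases before to 50 after each start site (GRCm38.p6) were searched for the forkhead core GTAAACA on both strands. Of the 9 genes with a window, 2 held it, Bcl2l11 and Bbc3, the genes whose known control prompted the search. The letters occurred in the windows of 4.05% of all 27025 genes and are a match only, not a site of binding. The stretches around them are shown, with the match in capitals, at position -227 from the start site of Bcl2l11 (chr2:128125788-128125857, plus strand) and at -167 from that of Bbc3 (chr7:16310054-16310140, plus strand, with the match on the minus strand).
Bcl2l11: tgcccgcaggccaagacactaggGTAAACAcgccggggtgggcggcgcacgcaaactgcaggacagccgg
Bbc3: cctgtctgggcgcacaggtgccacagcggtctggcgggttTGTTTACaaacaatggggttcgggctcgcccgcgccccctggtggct

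Bcl2a1b and Bcl2a1d are near-identical copies, and their sequences show how closely counts of one depend on reads of the other. Their annotated transcripts matched at 810 of 817 aligned bases (99.1%), with a longest identical run of 217 bases, and the last 300 bases, which a 3′ assay reads, were 99.3% identical. The stretches before their RefSeq start sites, Bcl2a1b at chr9:89199023-89199228 on the plus strand and Bcl2a1d at chr9:88731851-88732050 on the minus strand, matched at 198 of 206 aligned positions. Capitals mark the bases of each that the other lacks or has changed.
Bcl2a1b: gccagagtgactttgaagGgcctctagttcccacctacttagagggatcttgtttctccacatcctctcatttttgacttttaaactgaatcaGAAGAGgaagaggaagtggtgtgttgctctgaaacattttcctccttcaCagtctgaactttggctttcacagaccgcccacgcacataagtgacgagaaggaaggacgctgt
Bcl2a1d: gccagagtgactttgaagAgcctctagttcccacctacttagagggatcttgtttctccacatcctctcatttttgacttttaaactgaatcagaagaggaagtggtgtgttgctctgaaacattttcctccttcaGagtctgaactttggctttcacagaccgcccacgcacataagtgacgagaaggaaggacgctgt
Both stretches held 1 match to the AP-1 letters TGANTCA, which read the same on both strands and occurred in 7.81% of all windows, and these were the only members with that match. The kappa B motif occurred in the windows of Bcl2l1 and Bbc3 and in 4.51% of all windows. The E2F letters TTTCCCGC, present in 1.07% of all windows, were in no member's window. Levels of Bcl2a1b and Bcl2a1d are given as counted, and their split is uncertain.

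Over all T cells, 1 of the 9 members with a mean of at least 10 CPM differed between the days by 1.5-fold or more, where 12.9% of all 6889 genes did. It was Bcl2a1b, an A1 copy that NF-kB is known to induce, with 132 CPM (10951 UMIs) early and 208 CPM late, which made a log2 ratio of 0.66 (95% interval 0.62 to 0.69). The median of all genes was itself at a log2 ratio of 0.19. With ratios centred on the median of well-counted genes, Bcl2a1b stood at 0.43 and was no longer past the fold. Bcl2, the guardian of resting T cells, went from 47.3 CPM (45.8 to 48.8) to 65.2 CPM, or 0.46 on the log2 scale and 0.27 above the median of all genes. The levels of the 2 days lay close together for Mcl1 (178 and 195 CPM), Bax (198.5 and 210 CPM) and Bak1 (74.0 and 73.8 CPM), with log2 ratios of 0.13, 0.08 and -0.0036. The BH3-only genes took different sides. Bcl2l11 was at 44.0 and 51.8 CPM, Pmaip1 at 25.5 and 21.6 CPM, and Bbc3 at 11.9 and 7.35 CPM, which put Bbc3 just under the limit on low levels with a log2 ratio of -0.69.

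**Figure D1:**
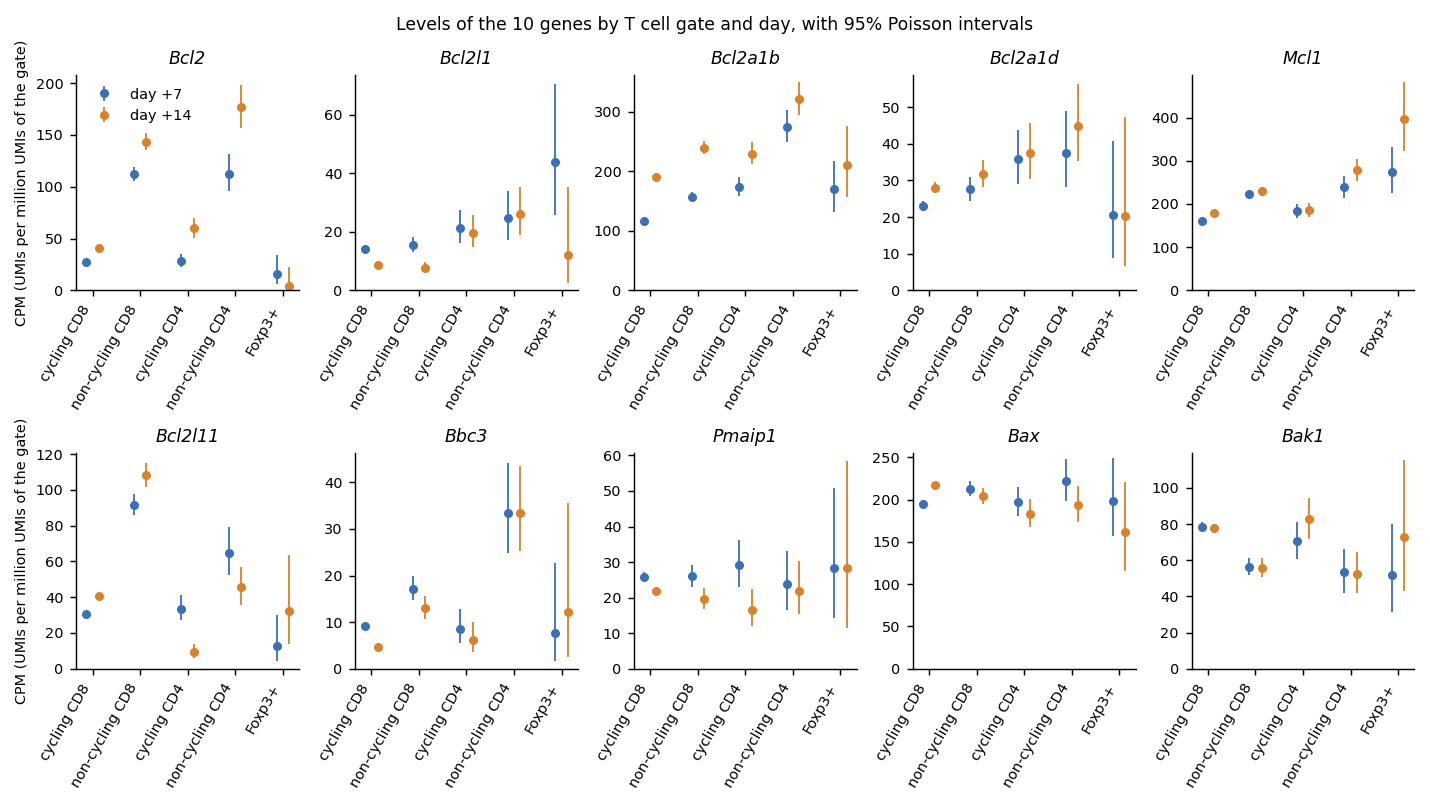
Level of each of the 10 genes in CPM (y axis, linear and from 0) in 5 T cell gates (x axis) at day +7 (blue) and day +14 (orange). Points are sums over the cells of 1 library and bars are 95% Poisson intervals. Bcl2 and Bcl2l11 were higher in non-cycling than in cycling CD8 cells on both days, while Bak1 was lower there.

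Shares of cells with a UMI were read after each cell was thinned to 4000 UMIs. Bcl2 was detected in 17.0% of 6843 T cells at day +7 (16.1 to 17.9) and in 21.5% of 6757 at day +14 (20.6 to 22.5), against 31.0% and 37.4% of all T cells without thinning. Bcl2a1b was detected in 37.2% and 52.9%, and Bcl2l11 in 16.7% and 17.5%. As a gauge of free RNA, 0 of 89 thinned erythroid-like cells of day +7 had a Bcl2 UMI, which allows a share of up to 3.37% when 3 cells are allowed for (exact 95% interval up to 4.06%), and 1 of 89 had a Bcl2a1b UMI. Before thinning these cells were deeper than the T cells, with medians of 32131.5 and 9196 UMIs. They therefore lost a larger part of their UMIs to thinning, and their shares may understate free RNA in T cells. Bbc3 was no such blank, since it was found in 10.1% of the thinned erythroid-like cells and in 5.13% and 2.90% of T cells.

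Cycling and non-cycling CD8 cells, the largest gates, were compared within each library. At day +7, 3 of the 10 members were past 1.5-fold, all lower in cycling cells, where 26.0% of all genes were past it. At day +14, 2 of 8 were, both lower, where 28.8% of all genes were. The median of the members was at a log2 ratio of -0.35 and -0.26 on the 2 days, beside 0.05 and 0.02 for all genes tested.

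Bcl2 was the member with the largest of these ratios. It stood at 112 CPM (106 to 119) in non-cycling and 27.8 CPM (26.4 to 29.3) in cycling CD8 cells at day +7, and at 144 CPM (136 to 152) and 40.5 CPM (38.8 to 42.3) at day +14. The log2 ratios were -2.01 (-2.13 to -1.90) and -1.82 (-1.93 to -1.72), and over 10 alternative settings they ran from -2.21 to -1.77 and from -2.03 to -1.57. Cycling cells hold more RNA, with median UMIs of 13063.5 and 12427.5 against 6693 and 5287.5 in non-cycling cells, so that a lower CPM need not be fewer molecules. Per cell, Bcl2 was also lower, at 0.426 UMIs in cycling and 0.798 in non-cycling cells at day +7 and at 0.593 and 0.846 at day +14.

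Bcl2l11, which encodes the killer that BCL-2 restrains, was also lower in CPM. It was at 91.6 CPM (85.8 to 97.7) in non-cycling and 30.7 CPM (29.2 to 32.2) in cycling CD8 cells at day +7, and at 108 CPM (101 to 115) and 40.8 CPM (39.0 to 42.6) at day +14, with log2 ratios of -1.58 (-1.70 to -1.46) and -1.41 (-1.52 to -1.30). Per cell the gap was narrower, at 0.470 UMIs in cycling and 0.652 in non-cycling cells at day +7, and at day +14 the values lay close, at 0.596 and 0.638. Bbc3, a p53 and FOXO target, went from 17.1 to 9.10 CPM at day +7, with a log2 ratio of -0.91 (-1.17 to -0.65). At day +14 it was at 13.0 and 4.65 CPM, too low on average for the count of members, with a log2 ratio of -1.49. Per cell Bbc3 was not lower in cycling cells at day +7, at 0.140 UMIs against 0.122, and at day +14 it was at 0.0680 against 0.0769, so its lower CPM held relative to the total RNA of a cell only. The third BH3-only gene, Pmaip1, showed no such gap, with 25.9 CPM in non-cycling and 25.7 CPM in cycling cells at day +7 and 19.6 and 21.7 CPM at day +14.

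The other guardians differed less. Mcl1, whose short-lived product is needed by most lymphocytes, was at 223 and 162 CPM in non-cycling and cycling CD8 cells at day +7 and at 230 and 178 CPM at day +14, log2 ratios of -0.46 and -0.37 that lay under the fold. For Bcl2a1b the log2 ratios were -0.44 and -0.33. Bcl2l1 had 15.5 and 14.2 CPM at day +7, and the interval of its log2 ratio (-0.38 to 0.13) took in 0. Of the pore formers, Bak1 was higher in cycling cells, at 56.2 and 78.6 CPM at day +7 and 55.8 and 77.5 CPM at day +14, log2 ratios of 0.48 (0.36 to 0.61) and 0.48 (0.34 to 0.61), both under the fold. Bax differed little, with log2 ratios of -0.13 and 0.09. The ratio of Bak1 to Bax UMIs was therefore 0.264 in non-cycling and 0.404 in cycling cells at day +7.

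A finer split showed where along the cell cycle genes these levels parted. CD8 cells were binned by cell cycle UMIs per 1000000 UMIs of the cell. Bcl2 at day +7 was at 114, 111, 72.5, 34.8, 23.2 and 23.5 CPM in the bins from 0 to 100, 100 to 300, 300 to 1000, 1000 to 3000, 3000 to 6000 and 6000 or more. At day +14 the values were 160, 128.5, 106, 41.9, 38.9 and 41.9 CPM. As a ratio, the widest step on both days lay between the bins from 300 to 1000 and from 1000 to 3000, and the 3 highest bins of day +14 differed little. Bcl2l11 followed the same course, from 96.3 CPM in the lowest to 24.9 CPM in the highest bin at day +7 and from 113 to 41.3 CPM at day +14. Bak1 ran the other way, from 53.6 CPM in the lowest to 84.1 CPM in the fourth bin at day +7 and from 53.04 to 82.3 CPM at day +14. Markers of neutrophils, summed over 9 genes, stood at 641 and 826.5 CPM in cycling and at 24.65 and 344 CPM in non-cycling CD8 cells on the 2 days. Without T cells that carried many UMIs of other lineages, the log2 ratio of Bcl2 was -1.998 and -1.82 and that of Bcl2l11 -1.57 and -1.42.

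**Figure D2:**
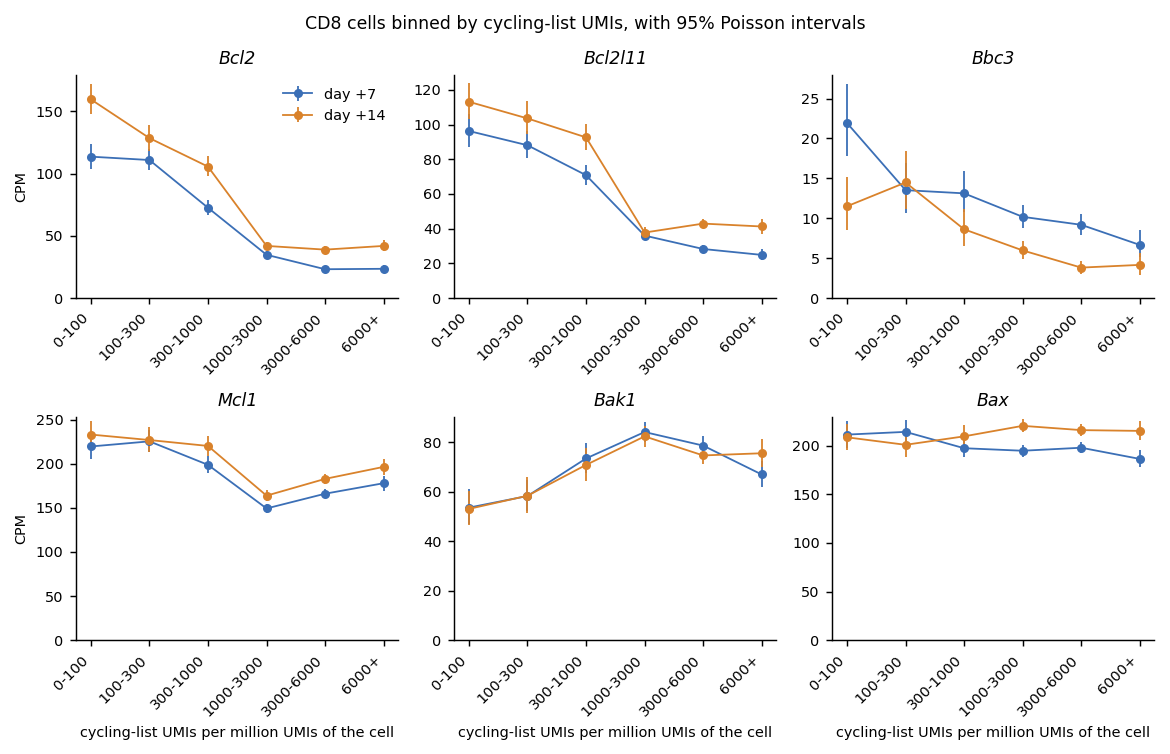
Levels in CPM (y axis, linear and from 0) of 6 members in CD8 cells binned by cell cycle gene UMIs per 1000000 UMIs of the cell (x axis, bins of unequal width), at day +7 (blue) and day +14 (orange), with 95% Poisson intervals. Bcl2 and Bcl2l11 were lower from the bin of 1000 to 3000 upward, while Bak1 was highest in the bin from 1000 to 3000.

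In conventional CD4 cells the same split gave lower Bcl2 in cycling cells as well. It was at 113 CPM (96.1 to 131) in non-cycling and 28.4 CPM (22.4 to 35.5) in cycling CD4 cells at day +7 and at 177 CPM (157 to 198) and 59.8 CPM (50.8 to 70.0) at day +14, log2 ratios of -1.99 and -1.56. Bbc3 was at 33.4 CPM in non-cycling CD4 cells on both days and at 8.58 and 6.17 CPM in cycling ones, which rests on 23 and 16 UMIs. Bak1 stood at log2 ratios of 0.41 and 0.66. The log2 ratios of Bcl2l11 were -0.95 (-1.38 to -0.52) at day +7 and -2.30 (-3.03 to -1.62) at day +14, intervals that did not overlap.

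Within non-cycling CD8 cells, 2 of 10 members differed between the days by 1.5-fold or more, beside 20.9% of all genes. Within cycling CD8 cells, 2 of 9 did, beside 10.8% of all genes. They were Bcl2a1b and Bcl2l1 in both gates, in opposite directions. Bcl2a1b was at 157 CPM (150 to 165) and 240 CPM (230 to 250) in non-cycling cells and at 116 and 190 CPM in cycling cells, log2 ratios of 0.61 and 0.71. With ratios centred on the median of well-counted genes these were 0.43 and 0.52, under the fold. The sum of the 3 A1 copies counted in the files was at 186 and 272 CPM in non-cycling and at 140 and 219 CPM in cycling cells. This sum does not depend on how the counted UMIs were split between the copies, but reads that could not be assigned to 1 copy may be missing from it. Bcl2a1d by itself stood at log2 ratios of 0.20 (-0.04 to 0.45) and 0.28 (0.17 to 0.39).

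Bcl2l1, the gene of BCL-XL, was counted at 15.5 CPM (157 UMIs) and then 7.60 CPM (67 UMIs) in non-cycling CD8 cells, a log2 ratio of -1.03 (-1.47 to -0.61). In cycling CD8 cells it was at 14.2 CPM (732 UMIs) and 8.53 CPM (431 UMIs), a log2 ratio of -0.73 (-0.91 to -0.56). It stayed past the fold in all 10 alternative settings in both gates, from -1.21 to -0.69 and from -0.96 to -0.64. In non-cycling CD4 cells, at 24.6 and 26.1 CPM, and in cycling CD4 cells, at 21.3 and 19.7 CPM, no day difference in Bcl2l1 was detectable, with log2 ratios of 0.09 (-0.58 to 0.77) and -0.11 (-0.69 to 0.46). Over the 10 alternative settings these ran from -0.10 to 0.71 in non-cycling and from -0.80 to 0.16 in cycling CD4 cells. Each range reached past the fold, in opposite directions.

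Bcl2 was higher at day +14 than at day +7 in all 4 gates of CD8 and CD4 cells. The log2 ratio was 0.36 (0.24 to 0.47) in non-cycling and 0.54 (0.45 to 0.64) in cycling CD8 cells, both under the fold. It was 0.65 (0.37 to 0.93) in non-cycling CD4 cells, where Bcl2 was the 1 member of 10 past the fold beside 31.5% of all genes. As a mean of the cells' own CPM it was 0.47 there, under the fold. It was 1.08 (0.67 to 1.49) in cycling CD4 cells, with 76 and 155 UMIs. In this last gate Pmaip1 was at 29.1 and 16.6 CPM, a log2 ratio of -0.81 (-1.38 to -0.26) that was -0.0007 in thinned cells, of which 11.2% and 10.7% had a UMI. The median of all genes was at log2 ratios of 0.19, 0.17, 0.22 and 0.12 in these gates.

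**Figure D3:**
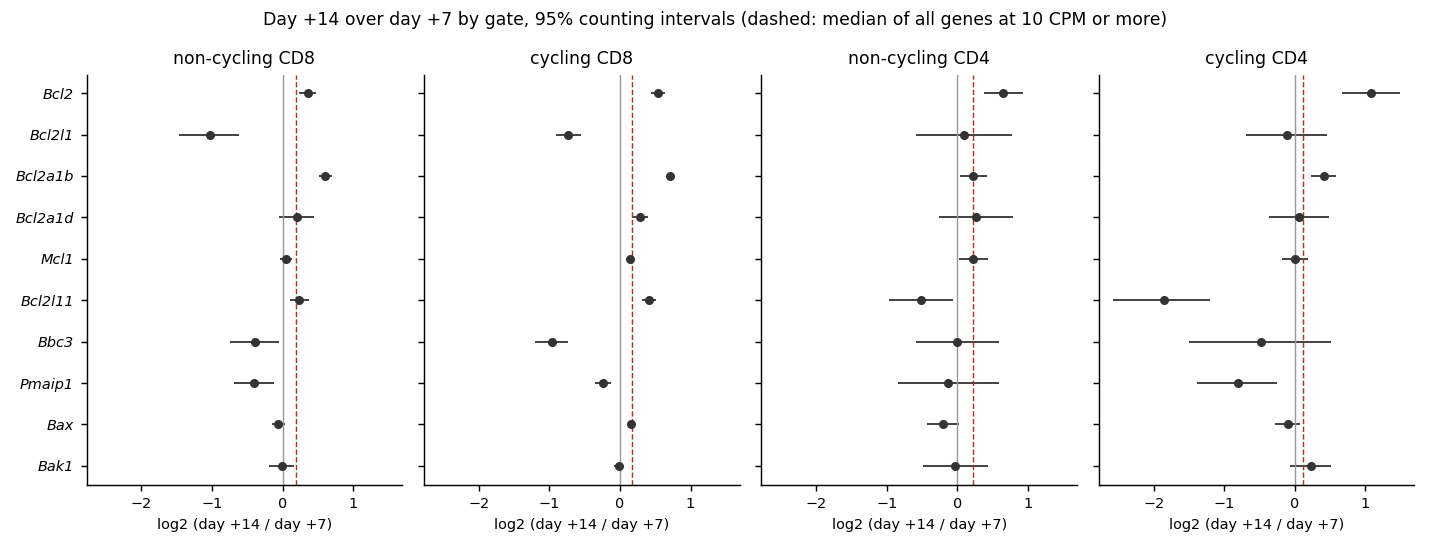
Log2 ratio of day +14 over day +7 (x axis) for the 10 genes (y axis) in 4 T cell gates, with 95% counting intervals and, dashed, the median of all genes at a mean of 10 CPM or more. Bcl2l11 lay to the right of 0 in both CD8 gates and to the left in both CD4 gates, and Bcl2 lay to the right in all 4.

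The day ratio of Bcl2l11 took opposite signs in CD8 and conventional CD4 cells. Its levels at day +7 and day +14 were 91.6 and 108 CPM in non-cycling CD8 cells and 30.7 and 40.8 CPM in cycling CD8 cells, log2 ratios of 0.24 (0.11 to 0.37) and 0.41 (0.32 to 0.51). They were 64.8 CPM (95 UMIs) and 45.6 CPM (75 UMIs) in non-cycling CD4 cells, a log2 ratio of -0.51 (-0.97 to -0.06), and 33.6 CPM (90 UMIs) and 9.26 CPM (24 UMIs) in cycling CD4 cells, a log2 ratio of -1.86 (-2.57 to -1.20). In thinned cells, 12.3% of 187 cycling CD4 cells had a Bcl2l11 UMI at day +7 and 3.06% of 196 at day +14. The latter was not above the 3.37% (3 of 89) of the erythroid-like cells of day +7. Those cells were no blank for Bcl2l11, with a log2 ratio to T cells of -1.29 against -4.56 for Bcl2, so their share does not gauge free RNA of Bcl2l11. Neutrophil markers in cycling CD4 cells went from 12.3 to 1785 CPM. In non-cycling CD4 cells neutrophil markers went from 23.2 to 86.85 CPM and erythroid markers from 6.14 to 552 CPM. Without cells that carried many UMIs of other lineages the log2 ratio of Bcl2l11 was -1.82 in cycling and -0.50 in non-cycling CD4 cells, where Bcl2 stood at 0.63 and Bbc3 at 0.0031. Over the 10 alternative settings the ratio of Bcl2l11 ran from -2.06 to -1.61 in cycling and from -0.67 to -0.32 in non-cycling CD4 cells. In CD8 cells it ran from 0.22 to 0.53 in cycling and from 0.07 to 0.30 in non-cycling cells. The median of all genes was at 0.17 and 0.19 in these 2 CD8 gates, so the ratio in non-cycling CD8 cells lay close to that of all genes.

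Because BCL-2 binds BIM, the number of Bcl2 UMIs per Bcl2l11 UMI was compared between gates. This ratio shows unequal change only, as capture differs between genes. In CD8 cells it was 1.22 (1.12 to 1.34) at day +7 and 1.33 (1.22 to 1.44) at day +14 in non-cycling cells, and 0.906 (0.843 to 0.974) and 0.994 (0.935 to 1.06) in cycling cells. In CD4 cells it was 1.74 (1.34 to 2.26) and 3.88 (3.001 to 5.07) in non-cycling cells, and 0.844 (0.614 to 1.16) and 6.46 (4.18 to 10.4) in cycling cells. At day +7 the cycling cells of both lineages overlapped, and at day +14 both conventional CD4 gates stood above both CD8 gates with intervals apart. Foxp3+ cells were not among these gates. Their ratio was 1.20 (0.305 to 4.97) at day +7, from 6 and 5 UMIs. At day +14 it was 0.125 (0.0028 to 0.932), from 1 and 8 UMIs.

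**Figure D4:**
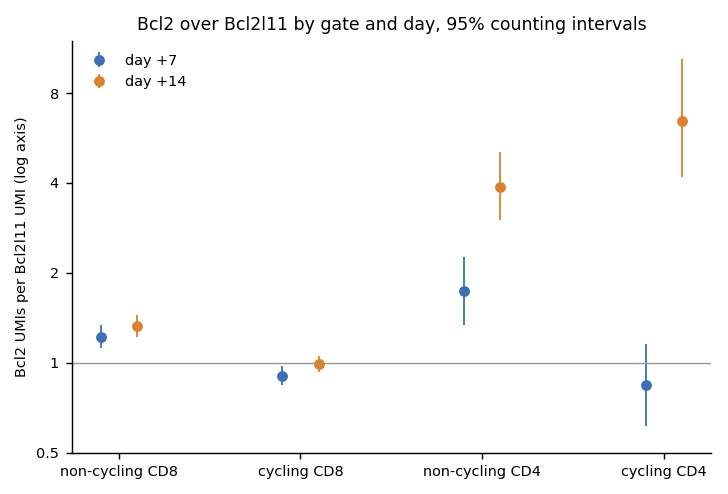
Bcl2 UMIs per Bcl2l11 UMI (y axis, log scale) in 4 T cell gates (x axis) at day +7 (blue) and day +14 (orange), with 95% counting intervals; the grey line marks equal numbers. The CD4 gates of day +14, at 3.88 and 6.46, stand above all others.

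Non-cycling CD4 and CD8 cells were compared within each library. At day +7, 3 of 10 members were past 1.5-fold, all higher in CD4 cells, beside 13.4% of all genes. They were Bcl2a1b at 275 against 157 CPM (log2 ratio 0.81, 0.64 to 0.96), Bbc3 at 33.4 against 17.1 CPM (0.97, 0.48 to 1.43) and Bcl2l1 at 24.6 against 15.5 CPM (0.66, 0.10 to 1.19). Bcl2l1 fell under the fold with thinned cells, with the mean of per-cell CPM and with looser gates, down to 0.18, and Bbc3 did so with stricter gates, at 0.25. At day +14, 3 of 10 were past the fold beside 14.8% of all genes. Bcl2l1 was higher in CD4 cells at 26.1 against 7.60 CPM (1.78, 1.19 to 2.36), and so was Bbc3 at 33.4 against 13.0 CPM (1.36, 0.87 to 1.83). Bcl2l11 was lower in CD4 cells at 45.6 against 108 CPM (-1.25, -1.61 to -0.91). For Bcl2 the log2 ratio was 0.01 (-0.24 to 0.24) at day +7 and 0.30 (0.11 to 0.49) at day +14.

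Foxp3+ cells were few, and their levels rest on 386861 and 247033 UMIs. Against non-cycling conventional CD4 cells, 6 of 10 members were past the fold at day +7 and 5 of 10 at day +14, where 37.4% and 45.5% of all genes were at these depths. Bcl2 was at 15.5 CPM in Foxp3+ and 113 CPM in CD4 cells at day +7, a log2 ratio of -2.86 (-4.33 to -1.71). At day +14 it was at 4.05 CPM, from 1 UMI, and 177 CPM, a log2 ratio of -5.45 (-10.8 to -2.96). Bcl2 was lowest in Foxp3+ cells among the T cell gates, although the interval at day +7 (5.69 to 33.8) took in the levels of cycling cells. With 2 of 40 and 1 of 29 thinned cells positive, their share overlapped that of erythroid-like cells within counting error. The cell cycle was not used to select Foxp3+ cells. Their cell cycle genes stood at 2290 and 2162 CPM on the 2 days, against 94.9 and 91.7 CPM in non-cycling CD4 cells. The part of this difference in the ratios was not tested. Against all conventional CD4 cells the log2 ratios of Bcl2 were -1.95 (-3.41 to -0.81) and -4.75 (-10.0 to -2.26).

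Mcl1 had its highest level of any T cell gate in Foxp3+ cells of day +14, at 397 CPM (322 to 484), against 274 CPM (224 to 331) at day +7. Its log2 ratio to non-cycling CD4 cells was 0.20 (-0.13 to 0.52) at day +7 and 0.51 (0.18 to 0.83) at day +14, and to all conventional CD4 cells 0.44 (0.13 to 0.73) and 0.80 (0.49 to 1.10). Bcl2l11, from 5 and 8 UMIs, and Bbc3, from 3 UMIs on each day, were at log2 ratios of -2.33 and -2.11 to non-cycling CD4 cells at day +7 and of -0.49 and -1.46 at day +14. Bcl2l1 changed sides, from 0.84 (-0.09 to 1.71) at day +7 to -1.10 (-3.44 to 0.54) at day +14, with both intervals taking in 0. Bcl2a1b was at -0.69 (-1.09 to -0.31) and -0.61 (-1.05 to -0.20), of which the first was lost with thinned cells and the second with looser gates. Bcl2a1d at -0.86 and -1.15 rests on 8 and 5 UMIs. Against all conventional CD4 cells, Bcl2l11 was at -1.77 at day +7 and 0.33 at day +14, and Bbc3 at -1.29 and -0.40. In the same comparison Bcl2a1b was at -0.31 and -0.34, under the fold on both days. Between the days, 2 of 8 members were past the fold in Foxp3+ cells, beside 43.9% of all genes, namely Bcl2l1 from 17 to 3 UMIs (-1.86, -4.27 to -0.07) and Bcl2l11 (1.33, -0.47 to 3.28).

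IL-7 is known to keep up Bcl2 in T cells. Non-cycling CD8 cells thinned to 4000 UMIs were therefore split by whether a UMI of Il7r, the gene of the IL-7 receptor chain, was seen. At day +7, 370 cells had one and 1010 had none, and 3 of 10 members were past the fold between them, beside 6.42% of all genes. At day +14 only 58 cells had one and 1192 had none, and 3 of 9 members were past it, beside 32.9% of all genes. Bcl2 was higher in Il7r-detected cells on both days, at 147 CPM (128 to 167.5) against 92.6 CPM (83.4 to 102) at day +7 and at 328 CPM (258 to 410) against 125 CPM (115 to 136) at day +14. The log2 ratios were 0.66 (0.42 to 0.91) and 1.39 (1.02 to 1.73), with intervals apart.

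For Bcl2l11 no difference was detectable at this depth, with log2 ratios of -0.09 (-0.39 to 0.21) and 0.12 (-0.48 to 0.67). Bcl2a1d was lower in Il7r-detected cells, at 13.5 against 30.2 CPM at day +7 (-1.16, -1.92 to -0.47) and at 8.62 against 29.8 CPM at day +14 (2 UMIs, -1.79, -4.85 to 0.09), and both fell under the fold without thinning, at -0.47 and -0.46. Its near-identical copy Bcl2a1b stood at log2 ratios of -0.30 (-0.53 to -0.07) and -0.43 (-0.90 to 0.01). Bcl2l1 at day +7 (18.9 against 12.4 CPM, 0.61, -0.11 to 1.31) and Bbc3 at day +14 (7 UMIs, 1.26, -0.11 to 2.39) were past the fold with intervals that took in 0. Bcl2l1 dropped under it in 4 of 10 alternatives, down to 0.40.

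**Figure D5:**
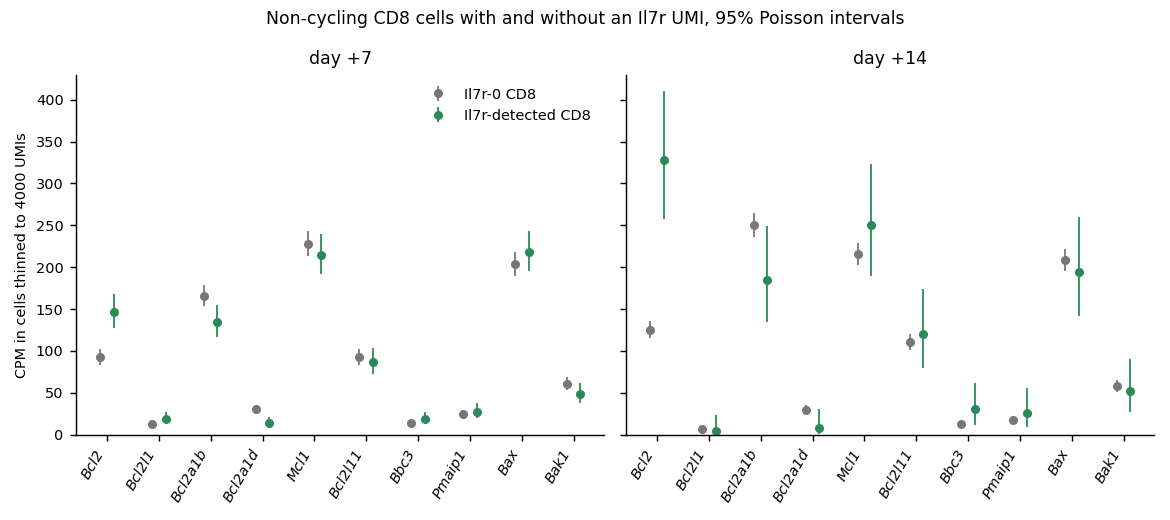
Levels of the 10 genes in CPM (y axis, linear and from 0) in non-cycling CD8 cells thinned to 4000 UMIs, with (green) and without (grey) a UMI of Il7r, at day +7 (left) and day +14 (right), with 95% Poisson intervals. Bcl2 is higher in the Il7r-detected cells on both days, at 147 against 92.6 CPM and at 328 against 125 CPM.

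Recent receptor signalling is known to induce the early genes of the Nr4a and Egr families. At day +14, 55 non-cycling CD8 cells were high in 5 such genes and 1200 had no UMI of them. Between these, 2 of 8 members were past the fold, both higher, beside 26.8% of all genes. Pmaip1, the gene of NOXA, which counters MCL-1, was at 57.1 CPM (17 UMIs, 33.3 to 91.4) against 18.0 CPM (14.9 to 21.4), a log2 ratio of 1.67 (0.84 to 2.41). Bcl2a1b was at 356 CPM (292 to 431) against 222 CPM (211 to 234), a log2 ratio of 0.68 (0.38 to 0.97). Bcl2 was at 141 and 148 CPM, a log2 ratio of -0.07 (-0.55 to 0.38). At day +7 only 11 cells were high in the early genes, too few for a count of members. Bcl2a1b was at 567 CPM (409 to 767) in them against 143 CPM (135 to 151), and Pmaip1, with 2 UMIs, at 27.0 against 23.5 CPM.

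The sorted libraries also held cells outside the T gate, where most genes differed from T cells by more than 1.5-fold and the counts of members lay beside a high share of all genes. Neutrophils are known to depend on MCL-1, and developing red cells on BCL-XL. In neutrophil-like cells 6 of 9 members were past the fold against T cells at day +7, all lower, beside 61.8% of all genes, and at day +14, 8 of 9 were, with 2 higher and 6 lower, beside 63.3%. Bcl2 was at 3.23 and 1.72 CPM in them, from 2 UMIs and 1 UMI, against 47.3 and 65.2 CPM in T cells. Mcl1 was at 237 and 331 CPM, log2 ratios of 0.41 (0.17 to 0.65) and 0.76 (0.55 to 0.97). Bcl2l1 was at 11.3 and 22.3 CPM, log2 ratios of -0.43 (-1.75 to 0.62) and 1.07 (0.16 to 1.85). Bax was at 82.3 and 91.0 CPM, log2 ratios of -1.27 and -1.21. The median of all genes was itself at log2 ratios of -0.39 and -0.42 between the neutrophil-like cells and T cells. Bcl2a1d had no UMI there, at least 5.09-fold and 5.84-fold lower than in T cells when 3 UMIs per gate are allowed for. The copy Bcl2a1a was higher there, at 8.07 CPM (5 UMIs) and 10.3 CPM (6 UMIs), against 0.82 CPM in T cells on both days. Bcl2a1b had 15 and 5 UMIs. The sum of the 3 A1 copies was at 32.3 and 18.9 CPM against 158 and 239 CPM in T cells, and the split between copies is uncertain.

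In erythroid-like cells of day +7, 7 of 9 members were past the fold against T cells, 1 higher and 6 lower, beside 55.9% of all genes. Bbc3 was the higher one, at 21.3 CPM (16.4 to 27.2) against 11.9 CPM, a log2 ratio of 0.85 (0.46 to 1.21), which dropped under the fold with median centring and with the mean of per-cell CPM, down to 0.43. Bcl2a1b was at 0.666 CPM, from 2 UMIs, a log2 ratio of -7.63 (-10.7 to -5.78), and Bcl2a1d had no UMI, at least 24.7-fold lower. Bcl2l1, at 2.998 CPM from 9 UMIs, was under the limit on low levels. Both A1 genes were thus nearly absent from these cells in the same library in which T cells carried them.

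Other genes of the pathway were read from 9 lists, over all T cells and by days, at a mean of at least 10 CPM. The share of all genes past the fold was 12.9%, as above, and their median log2 ratio was 0.19. Ratios of list genes were not centred on the median of well-counted genes, which was at 0.23, so calls just past the fold may not hold after centring. The median log2 ratios of the lists' genes were 0.06 for other anti-apoptotic and 0.26 for other pro-apoptotic family genes, 0.16 for the apoptosome and caspases, 0.07 for the death receptor arm and 0.47 for inhibitors of apoptosis. They were 0.38 for p53 and its targets, -0.16 for cytokine and FOXO control, 0.23 for NF-kB and 0.36 for the turnover of MCL-1. None of the 5 other BCL-2 family genes that passed this limit was past 1.5-fold. Bnip3, a mitophagy gene of the family that passed under the limit on average, went from 0.929 to 13.5 CPM, the widest ratio of its list. Its relative Bnip3l was at 84.8 and 111 CPM. In the list of apoptosome genes and caspases 1 of 11 was past the fold and higher, Apaf1, the scaffold of the apoptosome, at 16.7 and 30.5 CPM, while Cycs, which encodes cytochrome c, was at 270.2 and 262.5 CPM. Of the death receptor genes 2 of 7 were past it and higher, the receptors Fas at 11.5 and 40.9 CPM (log2 ratio 1.83) and Tnfrsf1a at 8.14 and 17.3 CPM (1.09), whereas Casp8 was at 75.1 and 73.9 CPM.

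Of 6 p53 genes 2 were past the fold and higher, Trp53 at 65.2 and 102 CPM and Ccng1 at 27.8 and 42.2 CPM. Bbc3 and Pmaip1, themselves p53 targets, were lower at day +14, as given above. Of 4 inhibitors of apoptosis 1 was past it, Birc3 at 9.87 and 18.0 CPM, and of 4 genes of MCL-1 turnover 1, the deubiquitinase Usp9x at 23.2 and 38.6 CPM. None of the 8 NF-kB genes was past it. In the list on cytokine and FOXO control of Bcl2 and Bcl2l11, 1 of 10 was higher, Stat5a at 14.6 and 23.8 CPM, and 2 were lower, Il2ra at 42.3 and 8.29 CPM (-2.35) and Il7r at 53.9 and 12.6 CPM (-2.10). Il7r was thus lower on the day on which Bcl2 was higher. Between cycling and non-cycling CD8 cells, Il7r was at 27.4 against 128 CPM at day +7 and at 5.70 against 23.1 CPM at day +14, both lower in cycling cells, as Bcl2 was. Cycs was higher in cycling cells, at 309 against 155 CPM and at 298 against 149 CPM. In Foxp3+ cells, Il7r and Bcl2 did not go together. Their Il7r level was 282 CPM early and 231 CPM late, above the 121 and 68.6 CPM of non-cycling CD4 cells. Their Bcl2, from 6 UMIs and 1 UMI, was below that of non-cycling CD4 cells on both days. What sets these levels was not tested.

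For each member, the 3 genes with the most similar course were sought among 3372 genes over 8 groups, the 4 CD8 and CD4 gates on 2 days, which share libraries and, in part, depth. Pearson's r of log2 levels is a description here. The closest to Bcl2 were Inpp1 (0.99), Sat1 (0.98) and Gimap4 (0.98), and to Bcl2l11 Cd96 (0.97), Fli1 (0.95) and Gm36723 (0.95). Bak1 was closest to Sf3b6, Tuba1a and Fkbp4 (each 0.995), Mcl1 to Mxd4, Clk1 and Shisa5, and Bbc3 to Slfn5, Rabac1 and Tmem59. Bcl2a1b was closest to Tbc1d4, Zfp36l1 and Prrc2c, and Bcl2a1d to Cd200, Cd6 and Casp4. Bcl2l1 was closest to Ly6e, Tmem154 and Tecr, and Pmaip1 to Riox2, Pdcd10 and Coa6. Bax, whose level hardly varied, had the weakest likeness, with Txn2 at 0.91, Dnm2 and Txndc9. Among the members themselves r was 0.94 for Bcl2 with Mcl1 and -0.86 for Bcl2 with Bak1.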

How the data were processed

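UMI counts per gene and cell of 2 libraries were read as the authors deposited them, as filtered matrices from Cell Ranger 6.1.2 on mm10 per the labels and the submitters' processing notes. No other step was applied to the deposited counts. Barcodes with 500 to 7500 genes and at most 15% mitochondrial UMIs were kept, the limits of the study's methods. Cells were gated by marker UMIs: T cells at 1000 or more UMIs per 1000000 from 6 T cell genes, CD8 cells by 2 or more Cd8a and Cd8b1 UMIs and no Cd4 UMI, CD4 cells by 1 or more Cd4 UMIs and none of Cd8a, Cd8b1 or Foxp3, cycling cells at 1000 or more and non-cycling cells under 300 UMIs per 1000000 from 11 genes, and early-gene-high cells at 500 or more UMIs per 1000000 from 5 genes. Within 1.5-fold of the cycling limit lay 685 and 639 CD8 cells, and 210 and 524 T cells with both Cd4 and Cd8 UMIs entered neither lineage gate. UMIs were summed per gate and day. Levels carry exact Poisson intervals, ratios exact conditional binomial intervals and shares exact Clopper-Pearson intervals, all at 95% and for counting error only. A gene counted as past the fold at 1.5-fold or more, among genes whose mean over both groups reached 10 CPM (UMIs per 1000000 UMIs of the gate). No p-value was computed, since each day had 1 library and cells are not replicates.

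Scrublet's automatic threshold marked 0 cells in both libraries and so did not work. Its scores, with 433 and 518 cells left out, served as an alternative. Alternatives covered scaling, weighting, thinning, cell filters, doublets, gates, the limit on low levels and the fold. The genes and lists were chosen with earlier results of these data known. Named genes were the 10 members, the 3 most similar genes per member, and genes of each list. From a list came the 3 genes with the most UMIs or, at a mean of 10 CPM or more, the largest ratio. Bnip3, under that mean, and the A1 copy Bcl2a1a were named outside this rule. Python 3.11.15 with scipy 1.17.1, numpy 2.4.6 and scanpy 1.11.5 was used, and the counting was tested on simulated data. Promoter windows came from RefSeq (GRCm38.p6). Loci came from the GENCODE annotation of GRCm38. Pmaip1 had no window in that table.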

Additional observations from a re-analysis of the deposited data

Results flagged for a closer look

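Bcl2l11 moved in opposite directions between the days in CD8 and conventional CD4 cells. In Foxp3+ cells, with 5 and 8 UMIs, its log2 ratio was 1.325, with an interval that took in equal levels. The log2 ratio of day +14 over day +7 was 0.24 in non-cycling and 0.41 in cycling CD8 cells, and -0.51 in non-cycling and -1.86 in cycling CD4 cells. The median of all genes was at 0.19 in non-cycling and 0.17 in cycling CD8 cells, so the value in non-cycling CD8 cells lay close to it. With 1 library per day the difference between the lineages was not tested. Median UMIs per cell went from 12472 to 12181 in cycling and from 6831 to 4318 in non-cycling CD4 cells, and neutrophil markers in these gates from 12.3 to 1785 CPM and from 23.2 to 86.85 CPM. Erythroid markers went from 62.3 to 5.40 CPM in cycling and from 6.14 to 552 CPM in non-cycling CD4 cells. Their part in the result was not tested beyond the values without cells rich in other lineages' UMIs, -1.82 in cycling and -0.50 in non-cycling CD4 cells.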

How the results depend on the processing

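No paired analysis was possible because each day has 1 library, and leaving out a library was not possible for the same reason. Of the counts of members past the fold and the share, 194 values stayed within 1.5 times or within their interval and 23 moved, and of the ratios of single members 1675 stayed, 110 moved and 0 changed sign while past the fold. A 2-fold limit gave 0 members between the days in all T cells, cycling CD8 and non-cycling CD4 cells, 1 in non-cycling CD8 cells, 0 between CD4 and CD8 cells at day +7, 3 between Foxp3+ and CD4 cells at day +7, 1 in the early gene split and 1 in the Il7r split of day +7. Between the days in all T cells, the mean of per-cell CPM gave 2, thinning 3, leaving out the top 5% of cells by UMIs 2 and a limit of 2 CPM 2, against 1. Median centring gave 1 against 2 in both CD8 gates. Non-cycling CD4 cells gave 2 with thinning and 2 with stricter gates, against 1. In Foxp3+ cells between the days, the mean of per-cell CPM and a limit of 2 CPM each gave 4 against 2. The limit of 2 CPM gave 4 against 2 in the early gene split. Where the counting interval also had to leave out equal levels, an alternative added after seeing the data, the count was 1 in Foxp3+ cells between the days, 2 against 5 in Foxp3+ over CD4 cells at day +14, and 1 against 3 in the Il7r split of day +14. The other alternatives added then, leaving out cells rich in other lineages and comparing Foxp3+ with all conventional CD4 cells, moved none of the counts past 1.5 times. The median share of T cells with a UMI over members and days was 17.2% thinned and 31.7% unthinned. Not run, for want of 30 cells in each group, a minimum set after the gate sizes were seen, were the early gene split of day +7, thinning and stricter gates for Foxp3+ cells between the days, stricter gates for Foxp3+ over CD4 cells on both days, thinning for it at day +14, and stricter gates for the early gene and Il7r splits of day +14. Depth limits the values of the Foxp3+, early-gene-high and neutrophil-like cells, where several members rest on under 10 UMIs.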

Other observations

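The macrophage-like cells, 30 and 16 outside the T gate, held too few UMIs, 94969 and 29796, for levels of most members and entered no comparison.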
